A study of Mus musculus with 12 samples.

Results

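The 45 genes described here are the mouse Wnt ligands and the proteins that receive, block or read out their signal. They were taken from a table of 46078 genes, of which 21596 are annotated as protein-coding, by symbol alone. The rule took every protein-coding gene named Wnt, Fzd, Sfrp or Dkk with a number, together with Frzb, Wif1, Lrp5, Lrp6, Axin2, Lef1, Tcf7l2 and Notum. This gave 19 ligands, 10 Frizzled receptors, 2 co-receptors, 11 secreted antagonists, 2 transcription factors and 1 target gene. The rule itself uses no measured value, though it was set with earlier results of these data known.

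The genes were followed in RNA sequencing of spinal cord white matter from C57Bl6 mice, cut out of the ventrolateral region with a laser. Injured tissue was taken 72 h after lysolecithin, a detergent-like lipid that strips myelin where it is injected, and naïve tissue from mice that had no lesion. Each age had both kinds of tissue, which gave 4 groups of 3 pools, and each pool held tissue from 5 mice. The groups are called young naïve and middle-aged naïve, and, after the lesion, young injured and middle-aged injured. The labels give the ages only as young and middle-aged, and the methods of the study give 6 weeks and 8 months. No injection of carrier alone is described for the naïve mice, so the effects of the injection itself and of the demyelination cannot be told apart. RNA was amplified when the libraries were made. All groups were of this strain, and no transgene or deletion is named.

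Wnt proteins are secreted, lipid-modified signals. In the canonical pathway a Wnt binds a Frizzled receptor together with Lrp5 or Lrp6, the complex that destroys β-catenin is held back, and β-catenin enters the nucleus and acts with factors of the Lef and Tcf family, of which Lef1 and Tcf7l2 are members. Axin2 is both a part of the destruction complex and a direct target of the pathway, and is widely used as its readout. Some ligands, Wnt5a among them, mainly act without β-catenin, through calcium or through the polarity of the cell. Secreted Frizzled-related proteins (the Sfrp genes and Frzb) and Wif1 bind the ligand, Dkk1, Dkk2 and Dkk4 bind Lrp5 and Lrp6, and Notum is an enzyme that removes the lipid from Wnt. In white matter, active Wnt signalling is known to hold back the maturation of oligodendrocyte progenitors, and Wnt7a and Wnt7b act on endothelial cells to form the blood-brain barrier.

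Each pool gave 9834447 to 12807437 counts, so that 3 counts, taken here as the floor of detection, correspond to 0.234 to 0.305 counts per 1e6 counts (CPM). Levels below are CPM scaled by the trimmed mean of M-values (TMM), and where genes are compared with each other the CPM was divided by the exon length in kilobases (RPKM). Fold changes were tested with edgeR over 15866 genes, and a gene was called when its adjusted p was below 0.05. Of the 45 genes, 29 passed the filter on low counts and 16 did not. A gene that is high in a single group can pass through that group alone, so the counts over the 29 describe these genes and test nothing about them as a set. In bulk tissue, fewer cells of a type and less RNA per cell cannot be told apart. Levels of cell type markers moved with injury. Markers of oligodendrocytes (6 genes) summed to 86700 to 102000 CPM in young naïve, 53010 to 60300 CPM in middle-aged naïve, 18250 to 20260 CPM in young injured and 7930 to 12450 CPM in middle-aged injured pools. Markers of myeloid cells (6 genes) summed to 79.9 to 174 CPM in the 6 naïve pools and to 1404 to 2104 CPM in the 6 injured pools, and those of fibroblasts (4 genes) to 14.8 to 34.6 CPM and to 280.2 to 794 CPM. Markers of astrocytes (5 genes) and of neurons (4 genes) were at 8326 to 10480 and at 680.8 to 1976 CPM in naïve pools, against 3267 to 5138 and 274.8 to 479.7 CPM in injured pools. The neuronal sum is nearly all Snap25 (661 to 1919 CPM in naïve and 247.4 to 439.4 CPM in injured pools), and the neuronal genes did not move as one. In young mice Snap25 and Rbfox3 were lower and Syt1 and Slc17a6 were not called, while in middle-aged mice Snap25, Rbfox3 and Syt1 were lower and Slc17a6 was higher (log2 fold change 1.52, edgeR adjusted p = 0.00918). Of the astrocyte genes, Aqp4, Gfap, Slc1a3 and Gja1 were lower at both ages and Aldh1l1 was not called. Markers of oligodendrocyte progenitors (3 genes) summed to 121 to 228.3 CPM in naïve and 201 to 350.8 CPM in injured pools. Pdgfra and Cspg4 were higher at both ages. Gpr17 was not called, with log2 fold changes of 0.16 in young and -0.30 in middle-aged mice. Those of mural cells (4 genes) summed to 222.3 to 362 CPM in naïve and 139.3 to 236.6 CPM in injured pools. The mural sum is mostly Rgs5, at 204.4 to 343 CPM in naïve and 92.6 to 165.7 CPM in injured pools. Rgs5 was lower at both ages and Kcnj8 was called lower in middle-aged mice. Acta2 and Pdgfrb were higher at both ages. No marker of these lists was at 0 in all pools of a group.

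Injury raised some of these genes and lowered others, and ligands, receptors and antagonists were each found in both directions. In young mice 8 of the 29 tested genes were higher and 6 were lower after injury, beside 28.3% and 26.3% of all genes tested. This split depends on the scaling, since with library totals in place of TMM 12 were higher and 4 lower. That scaling also moved the median log2 fold change of all genes up by 0.20 in young mice. In middle-aged mice 10 were higher and 8 were lower, beside 29.2% and 29.3%, and with library totals 11 and 8. With TMM the shares of these genes are close to those of all genes. With library totals the shares of all genes were not computed. At both ages Dkk2, Fzd1, Fzd2, Fzd7 and Lrp5 were higher (5 of 29, beside 24.5% of all genes) and Wnt3, Dkk3, Fzd9, Sfrp5 and Axin2 were lower (5 of 29, beside 22.8%). Wnt7a alone was called in opposite directions at the 2 ages (1 of 29, beside 0.0693%). Another 3 genes were called in young mice only and 7 in middle-aged mice only, and 8 tested genes were called in no comparison. The shares of all genes for these counts were not computed. A call at a single age is not a difference between the ages, and edgeR called 0 of the 29 for the difference of the injury effects. Without replicate 1 of the young injured group 5 genes were higher and 5 lower in young mice.

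**Figure D1:**
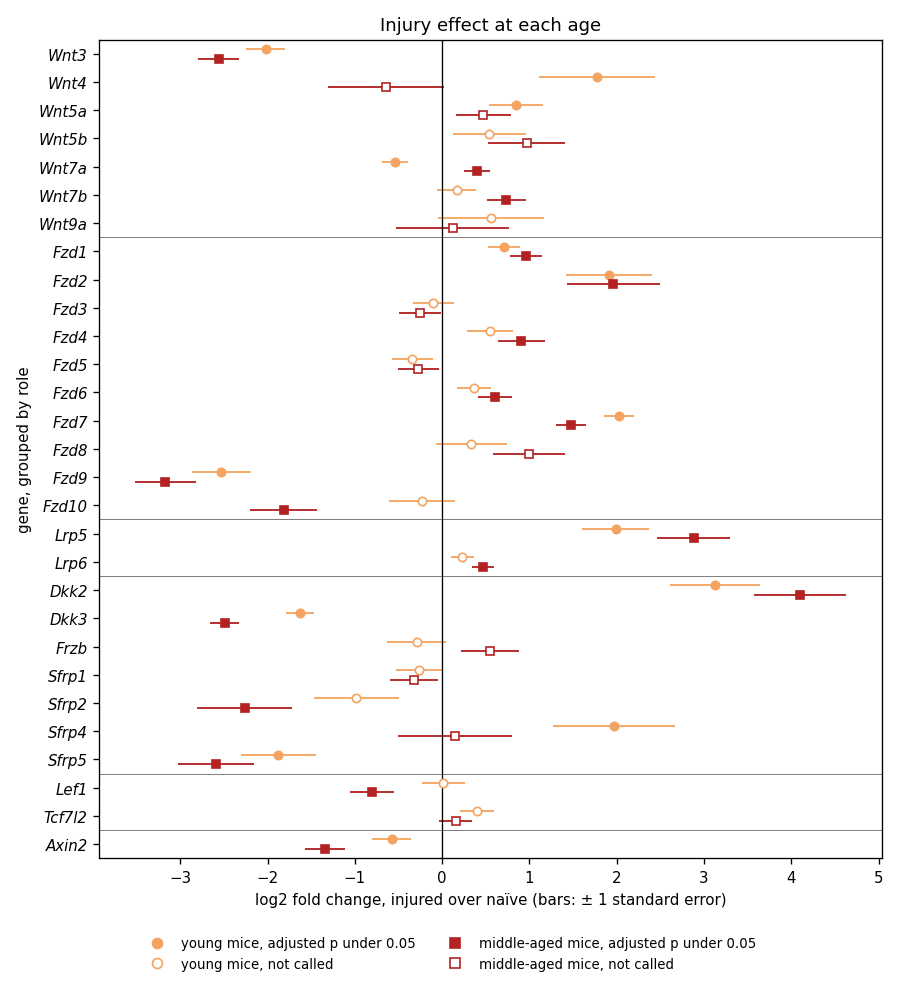
The horizontal axis gives the log2 fold change of injured over naïve pools with its standard error for the 29 tested genes (3 pools per group), in young (circles) and middle-aged mice (squares), and filled symbols mark an adjusted p below 0.05. Dkk2 lies farthest to the right at both ages (3.12 and 4.10) and Fzd9 farthest to the left (-2.53 and -3.17), while the symbols of Wnt7a lie on either side of 0.

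Among the ligands, Wnt3 and Wnt7a stood far above the rest in naïve white matter, and Wnt3 lost that place after injury. In RPKM, Wnt3 was at 13.3 ± 2.76 and Wnt7a at 13.1 ± 0.674 in young naïve pools (mean ± SD, n = 3), values that do not differ beyond their spread, and the next ligand, Wnt7b, was at 1.90 ± 0.358. In middle-aged naïve pools the order was the same, with RPKM of 12.2 ± 1.71, 10.02 ± 1.21 and 1.27 ± 0.186. Wnt3 thus held 42.9% ± 7.11 of the summed RPKM of the 19 ligands in young naïve pools and 46.2% ± 2.27 in middle-aged naïve pools. In injured pools it held 16.7% ± 4.54 and 9.87% ± 2.50. Wnt7a held 42.2% ± 3.83, 38.0% ± 1.24, 45.1% ± 7.60 and 63.2% ± 2.07 in the naïve young, naïve middle-aged, injured young and injured middle-aged groups. The summed ligand RPKM was 30.97 ± 1.44 and 26.3 ± 2.47 in the naïve groups and 20.1 ± 1.93 and 20.9 ± 1.30 in the injured groups. These shares are taken within a pool and are descriptions of the levels.

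Wnt3, a canonical ligand (chromosome 11, 103774150 to 103817957, plus strand, GRCm38), was at 32.7, 40.8 and 49.7 CPM in the young naïve pools and at 8.22, 10.2 and 11.9 CPM in the young injured pools. In middle-aged mice it was at 41.95, 31.7 and 38.7 CPM in naïve and at 4.57, 6.55 and 7.94 CPM in injured pools. Every injured pool lay below every naïve pool at both ages. Young mice had a log2 fold change of -2.02 ± 0.23 (SE; edgeR adjusted p = 3.32e-06), which is 4.06-fold lower, and middle-aged mice had -2.56 ± 0.23 (edgeR adjusted p = 4.04e-07), which is 5.89-fold lower. The sums of the oligodendrocyte, astrocyte and neuronal markers, the last of them mainly Snap25, were lower in the injured pools too. The part of these cells in the level of Wnt3 was not tested.

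Wnt7a, which signals to endothelial cells (chromosome 6, 91363981 to 91411363, minus strand), was lower after injury in young mice and higher after injury in middle-aged mice. It was at 42.7, 42.5 and 38.9 CPM in young naïve and at 26.2, 33.02 and 26.3 CPM in young injured pools, so that all 3 injured pools were the lower. In middle-aged mice it was at 35.7, 28.02 and 31.6 CPM in naïve and at 38.5, 46.3 and 40.9 CPM in injured pools, so that all 3 injured pools were the higher. This gave log2 fold changes of -0.54 ± 0.15 (edgeR adjusted p = 0.00604) for the young and 0.40 ± 0.15 (edgeR adjusted p = 0.0294) for the middle-aged pools. The difference between these effects was 0.94 ± 0.21 on the log2 scale, with an edgeR adjusted p of 0.103 that missed the threshold and a DESeq2 adjusted p of 0.00278. The call in young mice was lost when libraries were scaled by their totals alone (log2 fold change -0.34, edgeR adjusted p = 0.0648), and that in middle-aged mice in 5 of 19 alternatives, with edgeR adjusted p up to 0.120, among them those without middle-aged naïve replicate 2 (0.32) or 3 (0.40) or middle-aged injured replicate 2 (0.32). Endothelial markers (5 genes) summed to 120.5 to 155.5 CPM in young naïve, 174.7 to 211.4 CPM in middle-aged naïve, 149.7 to 205.2 CPM in young injured and 207.9 to 231 CPM in middle-aged injured pools. Flt1 is the largest part of this sum, and the endothelial genes did not move as one. With injury Pecam1 and Cdh5 were higher at both ages. Flt1 was called lower in middle-aged mice only, and Cldn5 and Tek were not called. The part of endothelial cells in the level of Wnt7a was not tested.

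Wnt7b, the closest relative of Wnt7a, was at 6.43, 5.25 and 7.04 CPM in middle-aged naïve and at 11.1, 11.1 and 8.98 CPM in middle-aged injured pools, without overlap. It rose by a log2 fold change of 0.73 ± 0.22 (edgeR adjusted p = 0.0118). In young mice it was at 11.3, 8.07 and 8.49 CPM in naïve and at 9.98, 8.53 and 12.7 CPM in injured pools, and these overlapped (log2 fold change 0.16 ± 0.22, edgeR adjusted p = 0.555). The young naïve pools were all above the middle-aged naïve pools, a difference of -0.57 ± 0.23 that was not called (edgeR adjusted p = 0.192).

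Wnt5a, which mainly acts without β-catenin, and Wnt4, which can act with or without it, were called in young mice and not in middle-aged mice. Wnt5a was at 8.93, 6.80 and 4.09 CPM in young naïve and at 15.3, 11.4 and 8.96 CPM in young injured pools. The lowest injured pool was barely above the highest naïve pool, and the log2 fold change was 0.84 ± 0.31 (edgeR adjusted p = 0.0315). In middle-aged mice Wnt5a was at 4.13, 4.93 and 7.36 CPM in naïve and 8.72, 6.07 and 8.12 CPM in injured pools, which overlapped (edgeR adjusted p = 0.215). Wnt4 was at 2.19, 2.18 and 2.04 CPM in young naïve and at 14.6, 4.73 and 2.64 CPM in young injured pools. The first of these injured pools stood apart, with 199 counts against 61 and 35, and the log2 fold change was 1.77 ± 0.66 (edgeR adjusted p = 0.0344). Without that pool the log2 fold change of Wnt4 was 0.79 (edgeR adjusted p = 0.333), and that of Wnt5a was 0.62 (edgeR adjusted p = 0.143). The call of Wnt4 was also lost without any 1 of the 3 young naïve pools (log2 fold change 1.75 to 1.79), and that of Wnt5a without young naïve replicate 2 (0.86) or 3 (0.60) or young injured replicate 2 (0.88). In middle-aged mice Wnt4 was at 2.40, 6.61 and 2 CPM in naïve and 3.65, 0.639 and 2.68 CPM in injured pools (edgeR adjusted p = 0.424).

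The other 2 tested ligands were not called at either age. Wnt5b, a relative of Wnt5a, ranged from 0.734 to 3.26 CPM over the 6 naïve pools and from 1.44 to 3.23 CPM over the 6 injured pools, with log2 fold changes of 0.54 ± 0.42 (edgeR adjusted p = 0.292) and 0.97 ± 0.45 (edgeR adjusted p = 0.076) in young and middle-aged mice. Wnt9a had 3 to 27 counts per pool, with log2 fold changes of 0.56 ± 0.61 and 0.12 ± 0.65.

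The remaining 12 ligands had too few counts to be tested. Wnt1, Wnt3a and Wnt8a had no count in any of the 12 pools, which at 3 counts allows a level of at most 0.234 to 0.305 CPM, and Wnt9b and Wnt10b had at most 2 and 1. Wnt2, a canonical ligand, had no count in any naïve pool, 27, 2 and 2 counts in the young injured pools and 8, 28 and 9 counts in the middle-aged injured pools. Summed over the group and set against 3 counts, this is at least 8.13-fold higher in young and at least 13.5-fold higher in middle-aged injured tissue. These limits rest on single pools. In young mice 27 of the 31 counts were in replicate 1 of the injured group, and without it 4 counts remained, at least 1.59-fold higher. In middle-aged mice 28 of the 45 counts were in replicate 2, and without it the limit was 7.78-fold. Wnt6 had no count in the young naïve pools and 7, 2 and 4 in the young injured pools, which is at least 3.41-fold higher. Wnt16 had 10 counts in replicate 1 of the young injured group and at most 2 in any other pool. Wnt2b ranged from 0 to 22 counts, Wnt10a from 1 to 16, Wnt11 from 0 to 8 and Wnt8b from 0 to 5.

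**Figure D2:**
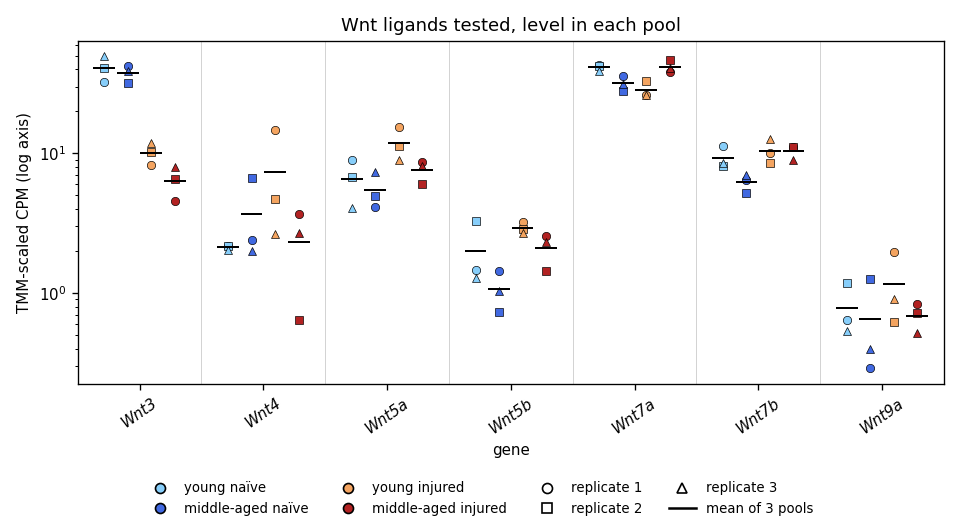
TMM-scaled CPM (log axis) of the 7 tested ligands in each of the 12 pools, coloured by group and shaped by replicate, with black lines at the mean of 3 pools. The injured pools of Wnt3 (4.57 to 11.9 CPM) lie below its naïve pools (31.7 to 49.7 CPM), and 1 young injured pool of Wnt4 (14.6 CPM) lies above the other 11.

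The Frizzled receptors changed places with injury. Fzd7 went from 13.7% ± 0.26 of the summed Frizzled RPKM in young naïve pools to 38.0% ± 4.62 in young injured pools, and from 16.6% ± 1.82 to 36.2% ± 1.63 in middle-aged mice. Fzd9 went from 21.2% ± 4.29 and 26.9% ± 5.99 in the naïve groups to 2.47% ± 0.13 and 2.29% ± 0.98 in the injured groups. In naïve tissue Fzd9, Fzd6, Fzd1 and Fzd7 had the highest RPKM of the 10, at 4.15 ± 1.12, 3.98 ± 0.538, 3.96 ± 0.512 and 2.67 ± 0.278 in young pools, and the first 3 do not differ beyond their spread. In injured tissue the order was Fzd7, Fzd1 and Fzd6, at 10.9 ± 0.877, 6.48 ± 0.638 and 5.12 ± 1.18 in young pools. The summed Frizzled RPKM was 19.4 ± 1.77 and 19.0 ± 2.33 in the naïve groups and 28.8 ± 1.79 and 24.6 ± 1.82 in the injured groups. All 10 receptors were tested, with 3 higher and 1 lower in young mice, beside 28.3% and 26.3% of all genes. In middle-aged mice 5 were higher and 2 lower, beside 29.2% and 29.3%.

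Fzd7, a receptor of canonical and other Wnt signals (chromosome 1, 59482424 to 59486955, plus strand), was at 10.7, 12.96 and 12.7 CPM in young naïve and at 44.8, 51.3 and 51.96 CPM in young injured pools. It was at 11.3, 14.3 and 17.7 CPM in middle-aged naïve and at 39.8, 38.7 and 42.04 CPM in middle-aged injured pools. The groups lay far apart at both ages, by 2.03 ± 0.17 on the log2 scale in young mice (edgeR adjusted p = 2.12e-07), which is 4.08-fold higher, and by 1.48 ± 0.17 in middle-aged mice (edgeR adjusted p = 3.66e-06), which is 2.78-fold higher. Fzd1 was at 15.8, 19.04 and 14.9 CPM in young naïve and at 30.02, 26.8 and 24.7 CPM in young injured pools, and at 11.9, 12.3 and 15.8 and 21.7, 25.9 and 30.7 CPM in middle-aged naïve and injured pools. Each injured pool was above each naïve pool of its age, with log2 fold changes of 0.71 ± 0.18 (edgeR adjusted p = 0.00432) and 0.96 ± 0.18 (edgeR adjusted p = 0.000437). Fzd2, a receptor close in sequence to Fzd1 and Fzd7, was low in all groups, at 1.37, 0.816 and 1.07 CPM in young naïve, 6.24, 3.41 and 2.71 in young injured, 0.192, 1.15 and 0.480 in middle-aged naïve and 1.99, 2.56 and 2.50 CPM in middle-aged injured pools. Its log2 fold change was 1.91 ± 0.49 (edgeR adjusted p = 0.00428) and 1.96 ± 0.54 (edgeR adjusted p = 0.00586), without overlap of the pools at either age. Of the 31-base stretches in the exons of Fzd1, Fzd2 and Fzd7, 1.61%, 1.90% and 0.777% occur in another gene, and how reads from these were counted is not given in the sources used here.

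Fzd9, known from neural progenitors and bone, had the lowest fold change of the 10 Frizzled receptors at both ages. It was at 7.20, 9.06 and 12.3 CPM in young naïve and at 1.69, 1.78 and 1.43 CPM in young injured pools. In middle-aged mice it was at 8.83, 15.3 and 11.2 CPM in naïve and at 0.664, 1.76 and 1.47 CPM in injured pools. The ranges were far apart, with log2 fold changes of -2.53 ± 0.34 (edgeR adjusted p = 1.96e-05) and -3.17 ± 0.35 (edgeR adjusted p = 2.63e-06), or 5.78-fold and 9.001-fold lower.

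Fzd4, Fzd6 and Fzd10 were called in middle-aged mice and not in young mice. Fzd4, the endothelial receptor of the vessel barrier, was at 7.20, 3.25 and 5.60 CPM in middle-aged naïve and at 8.63, 10.2 and 11.4 CPM in middle-aged injured pools, and its log2 fold change was 0.91 ± 0.27 (edgeR adjusted p = 0.0103). In young mice it was at 7.47, 6.80 and 6.45 CPM in naïve and 9.03, 12.9 and 8.43 CPM in injured pools, which did not overlap either, with a log2 fold change of 0.55 ± 0.27 that was not called (edgeR adjusted p = 0.0977). Fzd6 was at 14.2, 11.7 and 14.96 CPM and 19.7, 20.6 and 21.8 CPM in middle-aged naïve and injured pools (log2 fold change 0.60 ± 0.19, edgeR adjusted p = 0.0155), and at 18.04, 22.1 and 17.3 CPM and 26.8, 28.99 and 18.2 CPM in young mice (edgeR adjusted p = 0.123). All middle-aged injured pools of both genes were above the naïve ones. Fzd10 was at 3.65, 6.51 and 5.52 CPM in middle-aged naïve and at 2.08, 0.798 and 1.55 CPM in middle-aged injured pools, a log2 fold change of -1.82 ± 0.38 (edgeR adjusted p = 0.000869). Its young pools were at 2.37, 2.18 and 2.26 CPM in naïve and 2.42, 1.78 and 1.58 CPM in injured mice, so that the middle-aged naïve group alone stood high, above all other 9 pools. The difference between the injury effects on Fzd10 was -1.59 ± 0.54 (edgeR adjusted p = 0.296), and was not called.

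The other 3 Frizzled genes were not called. Fzd3, a receptor of axon guidance and cell polarity, ranged from 5.35 to 11.1 CPM over the 12 pools, and Fzd5 from 5.67 to 14.0 CPM. Fzd8, which binds canonical ligands, ranged from 0.839 to 3.90 CPM, with a log2 fold change of 0.997 ± 0.41 in middle-aged mice that stopped short of the threshold (edgeR adjusted p = 0.0517).

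Of the co-receptors that Frizzled needs for the canonical signal, Lrp5 was higher after injury at both ages and Lrp6 was called higher in middle-aged mice. Lrp5 was at 1.55, 1.63 and 0.645 CPM in young naïve and at 5.95, 5.74 and 3.77 CPM in young injured pools. It was at 0.672, 0.420 and 0.8001 CPM in middle-aged naïve and at 4.32, 6.07 and 3.97 CPM in middle-aged injured pools. No injured pool overlapped with a naïve pool, and the log2 fold changes were 1.99 ± 0.38 (edgeR adjusted p = 0.00052) and 2.88 ± 0.42 (edgeR adjusted p = 3.69e-05). Lrp6 was at 41.9, 50.9 and 55.3 CPM in middle-aged naïve and at 71.5, 63.1 and 70.3 CPM in middle-aged injured pools, a log2 fold change of 0.47 ± 0.13 (edgeR adjusted p = 0.00568). In young mice Lrp6 was at 57.8, 65.8 and 58.4 CPM and 69.5, 68.8 and 75.5 CPM, and its log2 fold change of 0.23 ± 0.13 was not called (edgeR adjusted p = 0.136). Per length Lrp6 was the higher of the pair in every group, with 4.44 ± 0.328 against 0.131 ± 0.0562 RPKM in young naïve pools and 5.21 ± 0.272 against 0.529 ± 0.123 RPKM in young injured pools. The receptors that rose at both ages did so in the samples in which myeloid and fibroblast markers were high. Of the progenitor, endothelial and mural markers, Pdgfra, Cspg4, Pecam1, Cdh5, Acta2 and Pdgfrb were also higher at both ages, and the others were not. The part of any of these cells was not tested.

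**Figure D3:**
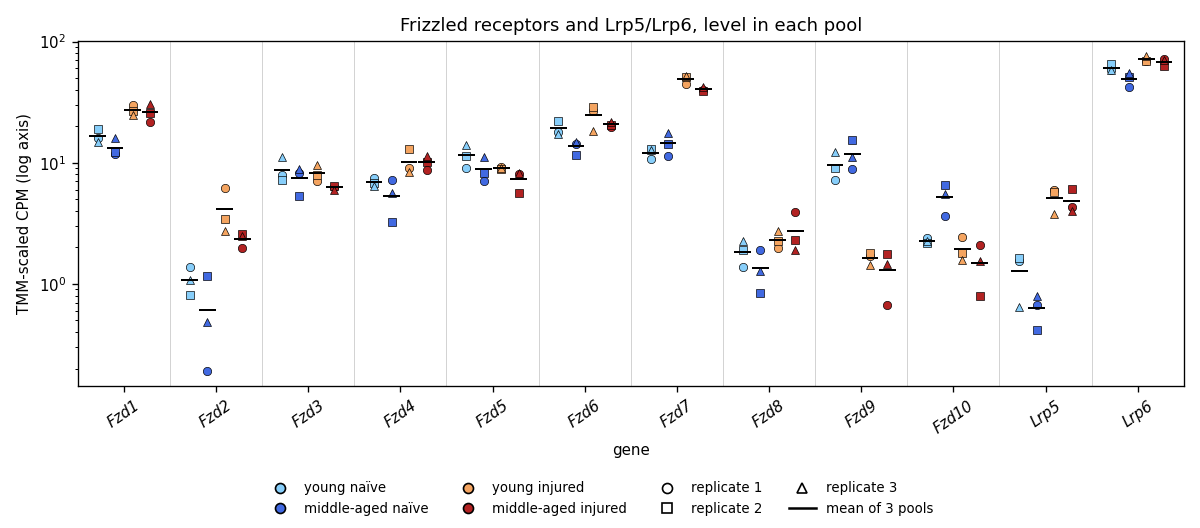
TMM-scaled CPM (log axis) of the 10 Frizzled receptors and of Lrp5 and Lrp6 in each of the 12 pools, coloured by group and shaped by replicate, with black lines at the mean of 3 pools. Fzd7 sits at 38.7 to 52.0 CPM in injured pools against 10.7 to 17.7 CPM in naïve pools, and Fzd9 at 0.664 to 1.78 CPM against 7.20 to 15.3 CPM.

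Of the secreted antagonists, Dkk3 made up most of the level and fell, while Dkk2 rose from a few counts. Dkk3 held 80.1% ± 3.39 of the summed RPKM of the 11 antagonists in young naïve and 81.3% ± 5.68 in middle-aged naïve pools, and 57.5% ± 1.59 and 48.5% ± 2.51 in the injured pools. The sum itself was 44.7 ± 9.13 and 50.4 ± 6.14 RPKM in the naïve groups and 20.2 ± 2.98 and 15.0 ± 1.13 RPKM in the injured groups. With 7 of the 11 tested, 2 were higher and 2 lower in young mice, beside 28.3% and 26.3% of all genes. In middle-aged mice 1 was higher and 3 were lower, beside 29.2% and 29.3%.

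Dkk3, a divergent member of the Dickkopf family whose place in the Wnt pathway is disputed (chromosome 7, 112116017 to 112159057, minus strand), was at 131, 136 and 92.7 CPM in young naïve and at 44.7, 36.1 and 35.6 CPM in young injured pools. It was at 124, 129 and 159 CPM in middle-aged naïve and at 26.8, 22.4 and 23.9 CPM in middle-aged injured pools. Every injured pool was below every naïve pool, by log2 fold changes of -1.63 ± 0.16 (edgeR adjusted p = 1.25e-06) and -2.49 ± 0.17 (edgeR adjusted p = 2.19e-08), or 3.09-fold and 5.63-fold lower. The middle-aged injured pools were also all below the young injured pools, with a log2 difference of -0.67 ± 0.17 (edgeR adjusted p = 0.0787, not called, and DESeq2 adjusted p = 0.0138). Oligodendrocyte, astrocyte and neuronal marker sums, the last of them mainly Snap25, were lower in the same injured pools, and their part in Dkk3 was not tested.

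Dkk2, which binds Lrp5 and Lrp6 and can block or, in some settings, weakly activate the pathway (chromosome 3, 132085292 to 132180304, plus strand), had 5, 3 and 6 counts in the young naïve pools and 1, 7 and 3 in the middle-aged naïve pools. It had 73, 46 and 41 counts in the young injured and 79, 92 and 50 in the middle-aged injured pools. In CPM this was 0.456, 0.272 and 0.645 against 5.36, 3.57 and 3.09 in young and 0.0960, 0.735 and 0.240 against 6.56, 7.35 and 4.32 in middle-aged mice, and no naïve pool came near an injured pool. The log2 fold changes, 3.12 ± 0.52 (edgeR adjusted p = 0.000135) and 4.10 ± 0.53 (edgeR adjusted p = 1.27e-05), were the highest among the 29 tested genes at each age. They rest on 1 to 7 counts per naïve pool. Fibroblast markers summed to 14.8 to 34.6 CPM in the same naïve pools. They summed to 505.8 to 794 CPM in young injured and 280.2 to 565.8 CPM in middle-aged injured pools. Dkk2 had a log2 fold change of 0.6 ± 0.41 for middle-aged over young injured pools, not called (edgeR adjusted p = 0.788). Myeloid sums were at 1404 to 1431 CPM in young injured and 1438 to 2104 CPM in middle-aged injured pools. These and the sums of oligodendrocyte progenitor markers were also higher after injury at each age, though Gpr17 among the progenitor markers was not called. The part of these cells in Dkk2 was not tested.

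Sfrp5, Sfrp2 and Sfrp4 are secreted Frizzled-related proteins, which bind Wnt in place of the receptor. Sfrp5 was at 5.10, 3.26 and 2.80 CPM in young naïve, 0.734, 1.40 and 0.904 CPM in young injured, 4.32, 8.08 and 4.80 CPM in middle-aged naïve and 1.41, 0.559 and 0.863 CPM in middle-aged injured pools. It fell at both ages without overlap, by log2 fold changes of -1.88 ± 0.43 (edgeR adjusted p = 0.00195) and -2.59 ± 0.44 (edgeR adjusted p = 0.000143). Sfrp2 was at 1.92, 2.20 and 2 CPM in middle-aged naïve and at 0.249, 0.319 and 0.691 CPM in middle-aged injured pools (log2 fold change -2.26 ± 0.54, edgeR adjusted p = 0.0025). In young mice it was at 3.37, 1.36 and 1.40 CPM and 0.734, 0.853 and 1.51 CPM, which overlapped (edgeR adjusted p = 0.103). Sfrp4 went the other way in young mice, from 3.10, 1.27 and 0.968 CPM in naïve to 9.91, 8.14 and 3.16 CPM in injured pools, with a log2 fold change of 1.97 ± 0.70 (edgeR adjusted p = 0.0279). Its lowest injured pool was level with its highest naïve pool, and the call was lost without young naïve replicate 2 (log2 fold change 1.77) or 3 (1.69) or young injured replicate 1 (1.65) or 2 (1.87), with edgeR adjusted p up to 0.0958. In middle-aged mice Sfrp4 was at 0.576, 8.18 and 5.36 CPM in naïve and 8.05, 3.59 and 3.97 CPM in injured pools, with 1 naïve pool far below the rest (edgeR adjusted p = 0.859).

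Frzb and Sfrp1, 2 more Frizzled-related proteins, were tested and not called. Frzb ranged from 2.79 to 8.62 CPM and Sfrp1 from 8.22 to 23.5 CPM over the 12 pools. The remaining 4 antagonists were too low to be tested. Wif1, which binds Wnt directly, had no count in any naïve pool, 13, 7 and 5 counts in the young injured and 3, 0 and 0 in the middle-aged injured pools, which in young mice is at least 6.55-fold higher. Notum had 4, 4 and 2 counts in the young naïve, 2, 3 and 11 in the middle-aged naïve and 3, 0 and 3 in the young injured pools, and none in the middle-aged injured pools. Its exons share 918 bases with genes on the opposite strand, so that its reads are uncertain. Dkk1 and Dkk4 had at most 1 count in any pool.

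**Figure D4:**
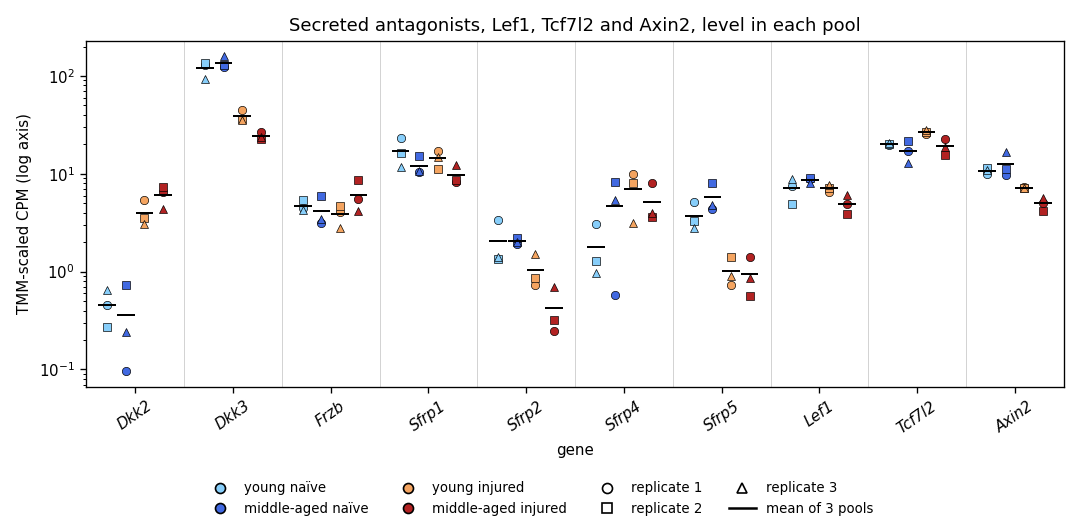
TMM-scaled CPM (log axis) of the 7 tested secreted antagonists and of Lef1, Tcf7l2 and Axin2 in each of the 12 pools, coloured by group and shaped by replicate, with black lines at the mean of 3 pools. Dkk2 lies at 0.0960 to 0.734 CPM in naïve and at 3.09 to 7.35 CPM in injured pools, Dkk3 at 92.7 to 159 CPM and at 22.4 to 44.7 CPM, and Axin2 is lowest in the middle-aged injured pools.

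**Figure D5:**
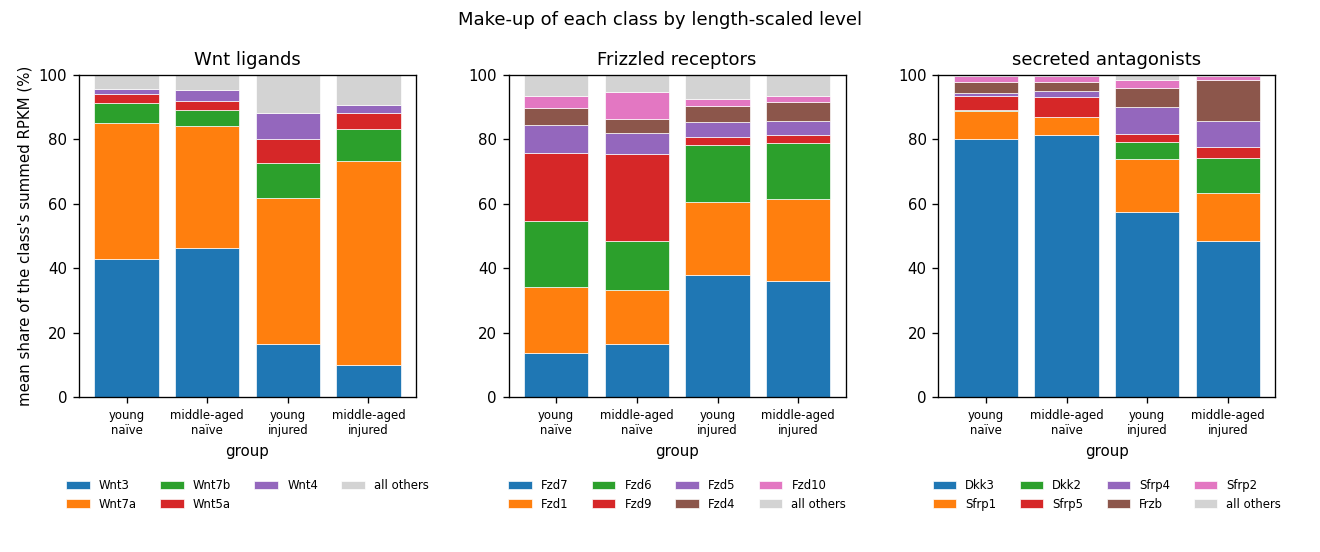
Each bar gives mean shares (%) of the summed RPKM of a class in 1 group of 3 pools, for the 19 ligands, the 10 Frizzled receptors and the 11 secreted antagonists. Selected genes are drawn singly and the rest of each class together as all others. Wnt3 shrinks from 42.9% and 46.2% in the naïve groups to 16.7% and 9.87% in the injured groups, Fzd7 grows from 13.7% and 16.6% to 38.0% and 36.2%, and Dkk3 shrinks from 80.1% and 81.3% to 57.5% and 48.5%.

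At the end of the pathway, Axin2 was lower after injury at both ages, Lef1 was called lower in middle-aged mice and Tcf7l2 was not called. Axin2 (chromosome 11, 108920349 to 108950783, plus strand) was at 9.84, 11.4 and 10.97 CPM in young naïve and at 7.27, 7.21 and 7.08 CPM in young injured pools. It was at 9.70, 11.2 and 16.8 CPM in middle-aged naïve and at 5.06, 4.15 and 5.70 CPM in middle-aged injured pools. The injured pools were all below the naïve pools of their age, with log2 fold changes of -0.58 ± 0.22 (edgeR adjusted p = 0.041) and -1.34 ± 0.23 (edgeR adjusted p = 0.000167). The call in young mice was near the threshold and was lost in 9 of 19 alternatives, 7 of them without 1 pool, which was any of the 6 young pools or middle-aged injured replicate 1 (log2 fold change -0.64 to -0.53 in these 7). The highest edgeR adjusted p over the alternatives was 0.171. Lef1 was at 8.83, 9.13 and 8.001 CPM in middle-aged naïve and at 4.90, 3.91 and 6.04 CPM in middle-aged injured pools, a log2 fold change of -0.80 ± 0.25 (edgeR adjusted p = 0.0124), which was lost without replicate 2 of the injured group (log2 fold change -0.66, edgeR adjusted p = 0.0607). In young mice Lef1 was at 7.47, 4.89 and 8.93 CPM and 6.53, 7.21 and 7.68 CPM, with overlap (edgeR adjusted p = 0.97). Tcf7l2, a factor that oligodendrocytes need for their maturation, was not called, at 19.9, 19.9 and 20.8 CPM in young naïve, 25.3, 26.6 and 27.9 CPM in young injured, 17.3, 21.4 and 13.04 CPM in middle-aged naïve and 22.9, 15.5 and 18.99 CPM in middle-aged injured pools. Its young injured pools were all above the young naïve pools, with a log2 fold change of 0.40 ± 0.19 (edgeR adjusted p = 0.0923). Oligodendrocyte markers were lower in the same pools as Axin2, and their part was not tested.

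Some genes of the pathway, Axin2 and Lef1 among them, are known targets of the Tcf and Lef factors themselves. The promoters were therefore searched for the core of the motif that these factors bind, the letters CTTTGA on either strand, in the 250 bases before each start site. The windows came from RefSeq on GRCm38.p6, and 30 of the 45 genes had at least 1. The motif was in 6 of their 37 windows (16.2%) and in 13.8% of all 32851 windows, which are close shares. The genes with a match were Frzb, Lef1, Fzd1, Wnt5b, Wnt11 and Dkk1. A match is a description of the letters and not a binding site. The windows of the 2 genes among them that were called are shown here in the direction of the gene, with the motif or its reverse complement in capitals.
Fzd1, chr5:4758429-4758466, minus strand, motif beginning 242 bases before the start: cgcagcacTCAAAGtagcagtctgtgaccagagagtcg
Lef1, chr3:131156090-131156143, plus strand, motif beginning 180 bases before a start site inside the gene: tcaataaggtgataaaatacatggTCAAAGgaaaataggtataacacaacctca
Lef1, chr3:131156150-131156203, plus strand, motif beginning 120 bases before the same start: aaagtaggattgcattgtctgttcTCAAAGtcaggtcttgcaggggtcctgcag

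None of the 29 tested genes was called by age with edgeR, in naïve or in injured tissue, and in injured tissue most of the fold changes were below 0. Between middle-aged and young naïve pools edgeR called 0 of the 29 genes, beside 3.80% of all genes tested, with 6 at an unadjusted p below 0.05 beside 18.3% of all genes, and DESeq2 called 1, Fzd10 (log2 fold change 1.21, DESeq2 adjusted p = 0.0435). Of the 29, 20 had a log2 fold change below 0, with a median of -0.27 beside 0.013 over all genes. Between middle-aged and young injured pools edgeR also called 0, beside 1.15% of all genes, with 7 at an unadjusted p below 0.05 beside 9.62%, and DESeq2 called 2, Wnt7a and Dkk3. Here 25 of the 29 had a log2 fold change below 0 (23 when scaled by DESeq2 size factors and 25 when scaled by library totals), with a median of -0.38 beside 0.0022 over all genes. In 12 of the 29 every middle-aged injured pool was below every young injured pool, beside 12.2% of all genes tested, and these were Wnt3, Wnt5a, Wnt5b, Fzd2, Fzd3, Fzd5, Fzd7, Dkk3, Sfrp2, Lef1, Tcf7l2 and Axin2. Wnt7a alone had all middle-aged injured pools above the young ones, with a log2 fold change of 0.56 ± 0.15 (edgeR adjusted p = 0.0972, DESeq2 adjusted p = 0.0113). Oligodendrocyte markers were also lower in middle-aged than in young injured pools (7930 to 12450 against 18250 to 20260 CPM), and their part in these differences was not tested. The injury effect differed between the ages for 0 of the 29 genes by edgeR, beside 0.139% of all genes, with 7 at an unadjusted p below 0.05 beside 9.92%, while DESeq2 called 2, Wnt7a and Dkk3. The age comparisons share their pools with the injury comparisons.

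Of a list of 59 other genes of the pathway, 52 were tested. In young mice 11 were higher and 16 lower, beside 28.3% and 26.3% of all genes, and in middle-aged mice 9 were higher and 21 lower, beside 29.2% and 29.3%. The highest in young mice were Myc (log2 fold change 2.94 ± 0.21, edgeR adjusted p = 3.25e-08) and Ccnd1 (2.33 ± 0.16, edgeR adjusted p = 2.98e-08), growth genes that Wnt and many other signals switch on, and Trabd2b (2.28 ± 0.30, edgeR adjusted p = 1.83e-05), a protease that inactivates Wnt. In middle-aged mice the highest were Ccnd1 (2.71 ± 0.16, edgeR adjusted p = 6.7e-09), Trabd2b (2.30 ± 0.30, edgeR adjusted p = 1.46e-05) and Ptk7 (2.22 ± 0.48, edgeR adjusted p = 0.00118), a receptor-like protein of the polarity pathway. The lowest in young mice were Rspo2 (-2.35 ± 0.31, edgeR adjusted p = 1.82e-05), a secreted enhancer of Wnt signalling, Nkd1 (-2.05 ± 0.22, edgeR adjusted p = 1.95e-06), an inhibitor that Wnt induces, and Lgr5 (-1.88 ± 0.40, edgeR adjusted p = 0.00111), a receptor of R-spondins. In middle-aged mice they were Rspo2 (-2.41 ± 0.31, edgeR adjusted p = 1.23e-05), Daam2 (-2.39 ± 0.22, edgeR adjusted p = 4.11e-07), a Dishevelled-binding protein of oligodendrocytes, and Lgr5 (-2.26 ± 0.42, edgeR adjusted p = 0.000315). Of the 7 tested R-spondins and R-spondin receptors none was higher at either age, 4 were lower in young and 5 in middle-aged mice, beside 26.3% and 29.3% of all genes. Myc and Ccnd1 were higher, and Axin2 and Nkd1 lower, at both ages. The call of Axin2 in young mice was lost in 9 of 19 alternatives. Tnfrsf19, a further target on the list, was called lower in middle-aged mice only. It was at 39.2 to 53.1 CPM in middle-aged naïve and 25.8 to 36.6 CPM in middle-aged injured pools. With age, 2 of the 52 were higher and 2 lower in naïve tissue, beside 3.8% of all genes called in either direction. The 2 higher were 1 nuclear protein and 1 target gene of the list. In injured tissue 2 of the 52 were lower, beside 1.15% of all genes called. Apcdd1, a membrane inhibitor of Wnt, was lower in naïve and in injured tissue, by log2 fold changes of -0.91 ± 0.22 (edgeR adjusted p = 0.0386) and -0.98 ± 0.22 (edgeR adjusted p = 0.045). So was Prickle1, of the polarity pathway, by -0.52 ± 0.13 (edgeR adjusted p = 0.0423) and -0.78 ± 0.13 (edgeR adjusted p = 0.0102).

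The exons of 9 of the 45 genes overlap an annotated gene on the opposite strand: Wnt5a, Wnt7b, Wnt11, Fzd5, Fzd6, Notum, Sfrp2, Lef1 and Axin2. The overlapping genes had 0 to 12 counts per pool, the highest of them beside Sfrp2, which had 3 to 37 counts itself. Whether counting used the strand is not given in the sources used here, and without it the reads in these stretches cannot be assigned. Nothing in the labels says whether the 3 pools of a group were handled on separate days, so the p-values measure the spread between these pools of different mice.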

How the data were processed

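RNA of laser-captured ventrolateral white matter was measured in 12 pools, 4 groups of 3, with group and replicate number taken from the sample labels. Per the labels and the methods of the study, the authors checked reads with FastQC 0.11.4, mapped them to GRCm38 with TopHat2 2.0.10 and Bowtie 1.1.2, and counted reads per gene with featureCounts. The deposited values are raw counts per gene, not normalized. The annotation release, the strand setting and the handling of shared reads are not given in the sources used here. Because RNA was amplified and no molecular identifiers were used, floors of detection (3 counts) cover counting error only.

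Tests were made in R 4.3.3 by the quasi-likelihood F-test of edgeR 4.0.16, after TMM scaling and filterByExpr, in 1 model of the 12 pools that had a coefficient for each group and nothing else. Injury was tested at each age, age was tested in naïve and in injured tissue, and the 2 injury effects were tested against each other. Benjamini-Hochberg adjustment ran over all 15866 genes that passed the filter, and 0.05 was the threshold. The standard error (SE) was obtained from the fold change and the root of F. RPKM used the exon length of each gene in GENCODE on the same build. Scripts were tested on simulated data. The alternatives were DESeq2 1.42.0, other scalings and filters, only the pools compared, each pool left out and a replicate block. The study compared groups in pairs with DESeq2.

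The members, the list of other pathway genes and the marker lists were chosen with earlier results of these data known. One of the marker lists is not reported here. The text gives values per pool for members called in any contrast, ranges for other members, and up to 3 highest and 3 lowest called genes of the other pathway list in each injury contrast. Wnt5b, Wnt9a, Fzd8, Tcf7l2 and the members too low to test were given further values after these had been seen, as were Apcdd1 and Prickle1. Motif CTTTGA was searched in RefSeq promoter windows.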

Additional observations from a re-analysis of the deposited data

Results flagged for a closer look

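Wnt7a was picked out because its pools moved in opposite directions in young and middle-aged mice. Every injured pool was below every naïve pool in young mice, and above every naïve pool in middle-aged mice. The effect in middle-aged mice minus that in young mice was 0.94 ± 0.21 on the log2 scale, with an edgeR adjusted p of 0.103 and a DESeq2 adjusted p of 0.00278. It was the only one of the 29 tested genes with this pattern, and the share of all genes with it was not computed. For the difference, edgeR with no filter on low counts gave an adjusted p of 0.0386. Oligodendrocyte and myeloid marker sums differed between the ages and with injury in the same pools. The endothelial sum differed between the ages, and its naïve and injured pools overlapped at each age. The part of these cells was not tested.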

How the results depend on the processing

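The 32 calls of members in the injury comparisons were computed under 19 alternatives each, 608 values in all, of which 0 changed direction and 29 missed the threshold. Of the calls, 25 were never lost and 7 were lost at least once: Wnt4, Wnt5a, Wnt7a, Sfrp4 and Axin2 in young mice, and Wnt7a and Lef1 in middle-aged mice. Leaving out each pool in turn gave 5 to 11 members higher and 5 to 6 lower by injury in young mice, and 9 to 12 higher and 7 to 9 lower in middle-aged mice. The count of members higher in young mice was 5 without young naïve replicate 2 and 5 without young injured replicate 1. Members called by age were 1 in naïve tissue with DESeq2, and in injured tissue 2 with DESeq2, 2 with only the pools compared, 1 with library totals, 2 with no filter, and 0 to 2 with each pool left out (1 without young naïve replicate 3 and 2 without middle-aged naïve replicate 2). The difference of the injury effects was called for 2 members with DESeq2 and for 3 with no filter. Scaling by library totals moved the median log2 fold change of all genes by 0.20 in young and by 0.11 in middle-aged injury. With it 12 members were higher and 4 lower in young mice, where 8 and 6 were with TMM. The shares of all genes called with library totals were not computed. With no filter or with DESeq2, Wnt2 was called at both ages, Wif1 in young mice and Notum in middle-aged mice. Replicate numbers did not pair the pools: deviations of same-numbered pools correlated at -0.113 to 0.153, with 2 of 18 pairs over 0.1. With the replicate number as a block, 7 members were higher and 6 lower in young mice, 10 were higher and 8 lower in middle-aged mice, and 0 were called by age or by the difference, and Wnt4 in young mice was lost (log2 fold change 1.56, edgeR adjusted p = 0.0587). Depth limits the members with a few counts per pool, whose fold changes depend on the filter.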
